A study of Mus musculus with 4 samples.

Results

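DNA replication and mitosis genes were followed as a set of 43 mouse genes, found by matching the gene symbols of the deposited table of 19991 genes to a list of members. The list holds 27 genes whose products prepare S phase or act in it, called S-phase members here, and 16 genes whose products act in mitosis, called mitotic members. All 43 were in the table and all 43 passed the filter on low values. One group was differentiating spermatogonia (dSG), cultured spermatogonia that the labels give as treated with retinoic acid (RA), a vitamin A derivative, for 36 h and as differentiated in vitro, with 2 libraries. They were set against undifferentiated spermatogonia (SG), kept in culture with the DMSO vehicle, also with 2 libraries. Both groups are labelled as wild-type C57BL/6 cells from testes, whereas the methods of the study describe cultures begun from pups of DBA mice or of the F1 of DBA crossed with GFP mice, sorted as CD9+ and c-Kit- cells. The labels give the RA dose as 100 µM, and the methods give the same figure in nanomolar. The methods move cells onto Matrigel for RA treatment and, for the proteomics, lift both cell types from feeder cells. The surface under the SG cells sequenced here is not stated, so RA and a change of surface cannot be told apart. Separate cultures are not stated for the 2 libraries of either group, so every p-value measures the spread between these libraries, which may be technical.

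Spermatogonia divide by mitosis both before and after RA commits them to differentiation, and the RA signal also prepares the last round of DNA synthesis before meiosis. In each cycle the origin recognition complex, with CDC6 and CDT1, loads the MCM2 to MCM7 helicase onto origins, a step named licensing. CDC45 and the GINS complex then activate that helicase with the help of MCM10, and polymerases copy the DNA while the PCNA clamp holds them in place. Transcription of many of these genes is driven by E2F factors around the entry into S phase. Cyclin B with CDK1 and the Polo and Aurora kinases act later, and many mitotic genes carry a CHR element bound by the MuvB complex and CCAAT boxes bound by NF-Y.

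The promoters of both sets are given before the values as a description. E2F factors drive many of the S-phase genes and many mitotic genes carry a CHR, as said above. A difference between the sets was therefore likely from the choice of members. RefSeq promoter windows on GRCm38.p6, each running from 250 bases before to 50 bases after a gene start, were matched to 36 of the 43 members. An E2F site was searched as TTTCCCGC, TTTCGCGC, TTTGCCGC or TTTGGCGC, a CHR as TTTGAA and a CCAAT box as CCAAT, each on both strands. E2F matches that overlap on opposite strands were counted apart. An E2F match was found for 10 of 22 S-phase members (45.5%) and for 1 of 14 mitotic members (7.14%), against 2.6% of all 27025 genes with a window. A CHR match was found for 2 of 22 S-phase members (9.09%) and for 10 of 14 mitotic members (71.4%), against 20.2% of all genes. A CCAAT match was found for 16 of 22 S-phase members (72.7%) and for 13 of 14 mitotic members (92.9%), against 41.1% of all genes. Only Cdk1, the kinase of cyclin B, was matched by all 3 searches among the 36 members. These matches describe letters in a window and not occupied sites, and no binding was measured in this series.

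The stretches below lie before the RefSeq start and outside every GENCODE M21 exon. Rrm2 and Mcm10 are shown as the 2 members that passed the test, Mcm5 and Mcm6 as helicase subunits with 2 and 3 E2F matches, Pola1 as the S-phase member with the highest fold change, and the other 4 as mitotic members with a CHR match. Capitals mark E2F, CHR and CCAAT matches, read 5′ to 3′ along the strand of the gene.
Rrm2 (chr12:24708081-24708240, plus strand): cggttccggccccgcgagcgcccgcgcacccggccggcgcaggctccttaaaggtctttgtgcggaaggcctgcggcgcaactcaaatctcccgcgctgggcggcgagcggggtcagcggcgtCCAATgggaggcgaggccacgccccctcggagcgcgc
Mcm10 (chr2:5012792-5012951, minus strand): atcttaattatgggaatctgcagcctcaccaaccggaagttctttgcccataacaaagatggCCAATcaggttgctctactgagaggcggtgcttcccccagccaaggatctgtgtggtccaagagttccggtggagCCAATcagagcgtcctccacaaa
Mcm5 (chr8:75109349-75109508, plus strand): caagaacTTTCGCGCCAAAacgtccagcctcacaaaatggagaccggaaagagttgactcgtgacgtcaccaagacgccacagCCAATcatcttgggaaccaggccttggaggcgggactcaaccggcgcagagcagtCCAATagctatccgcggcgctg
Mcm6 (chr1:128359706-128359865, minus strand): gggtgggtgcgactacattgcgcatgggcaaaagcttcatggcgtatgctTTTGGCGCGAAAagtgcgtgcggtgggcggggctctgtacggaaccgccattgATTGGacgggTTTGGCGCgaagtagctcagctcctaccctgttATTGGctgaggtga
Pola1 (chrX:93632156-93632315, minus strand): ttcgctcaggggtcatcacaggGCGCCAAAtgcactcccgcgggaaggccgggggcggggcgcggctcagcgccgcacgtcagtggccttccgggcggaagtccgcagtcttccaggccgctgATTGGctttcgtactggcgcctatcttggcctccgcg
Cdk1 (chr10:69352939-69353098, minus strand): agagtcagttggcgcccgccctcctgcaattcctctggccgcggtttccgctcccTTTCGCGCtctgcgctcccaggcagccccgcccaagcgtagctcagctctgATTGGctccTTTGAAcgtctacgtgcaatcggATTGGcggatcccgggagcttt
Cdc20 (chr4:118437353-118437512, minus strand): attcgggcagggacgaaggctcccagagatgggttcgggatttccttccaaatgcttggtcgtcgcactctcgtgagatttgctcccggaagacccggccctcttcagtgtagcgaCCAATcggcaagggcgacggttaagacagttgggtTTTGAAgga
Mki67 (chr7:135716380-135716539, minus strand): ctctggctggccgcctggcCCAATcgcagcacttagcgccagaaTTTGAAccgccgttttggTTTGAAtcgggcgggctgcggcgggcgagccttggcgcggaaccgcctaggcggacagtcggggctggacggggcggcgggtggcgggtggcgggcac
Top2a (chr11:99024190-99024349, minus strand): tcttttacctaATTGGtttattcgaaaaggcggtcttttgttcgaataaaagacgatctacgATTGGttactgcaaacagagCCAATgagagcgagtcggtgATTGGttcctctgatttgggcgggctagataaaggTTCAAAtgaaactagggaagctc

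The stretches of Rrm2 and Mcm10 held CCAAT boxes and none of the E2F letters searched, while TTTCGCGC in Mcm5 ran into the reverse form of TTTGGCGC. Top2a, the topoisomerase that untangles sister chromatids, had 4 CCAAT boxes and 1 CHR in the stretch. Among S-phase members the median log2 fold change of dSG over SG was -0.41 for the 10 with an E2F match and -0.28 for the 12 without one. It was 0.08 for the 10 mitotic members with a CHR match and 0.48 for the 4 without one. These medians are descriptions with no test.

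Libraries were compared before any gene was read. The dSG libraries held 22307745 and 26921478 reads on genes, and the SG libraries held 7484560 and 26953654. SG replicate 1 stood apart by depth, by 16660 genes with reads against 18753 to 18899 in the other 3 libraries, and by Lars2, which took 18.3% of its reads and 3.66% to 5.60% of the others. The SD over genes of the log2 difference between replicates was 0.20 for the dSG pair and 0.81 for the SG pair. Every member still had at least 111 reads in each library. The labels were checked with Kit, which was at 5825 and 5921 normalized counts in dSG and 319 and 347 in SG (log2 fold change 4.12, limma adjusted p = 0.0237), and with Stra8, at 12205 and 12236 in dSG and 134 and 37.8 in SG (7.33, adjusted p = 0.0244). Kit and Stra8 belong to a list of 7 markers of differentiating spermatogonia with a median log2 fold change of 0.51. Of these 7, 3 were called higher (with Nanos3), against 1.16% of all genes tested, and 0 lower. Another 2 had negative values down to -0.80. Of the 12 markers of undifferentiated spermatogonia 11 were tested, all 11 had negative values and 7 were called lower, against 4.91% of all genes tested. The 4 germ cell markers summed to 28700 and 31698 in dSG and to 14821 and 29782 in SG. SG replicate 1 was thus also apart by this sum, and the cause was not tested. The 13 markers of fibroblasts and feeder cells summed to 5820 and 5903 in dSG and to 15196 and 11074 in SG, with Col3a1, Dcn and Lum at or under 10 in every library. Of the 7 of them that were tested 5 had negative and 2 positive values. Pdgfra was called lower and Fbn1 higher, against 4.91% of all genes called lower and 1.16% called higher. Sertoli markers summed to 171 and 190 in dSG and to 675 and 396 in SG. The part of these cells in the results below was not tested, and in bulk RNA fewer cells of a type and less RNA per cell cannot be told apart.

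RA-treated cells held less of 2 S-phase transcripts, and no member of either set was higher by the test. Rrm2, the regulated small subunit of ribonucleotide reductase, fell by 1.82 on the log2 scale, and Mcm10, a factor of helicase activation, fell by 1.43. The 16 mitotic members included no gene that passed the test in either direction. The test was limma on log2(normalized count + 4) over 14108 genes with Benjamini-Hochberg adjustment, and calls needed an adjusted p under 0.05. The 2 S-phase members called lower are 7.41% of the 27, against a background of 4.91% of all genes tested that were called lower and 1.16% called higher, so the count of called members is near that of genes at large. At an unadjusted p under 0.05, 8 S-phase members were lower and 2 higher, and no mitotic member was on either side, against 16.3% of all genes lower and 10.5% higher. EdgeR's quasi-likelihood test on the recovered reads called 3 S-phase members lower, against 6% of all genes lower and 1.4% higher. DESeq2 called 4 of them lower, against 10.4% of all genes lower and 3.32% higher. Both tools called 0 S-phase members higher and 0 mitotic members.

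The 2 sets lay at different positions in the same comparison. The median log2 fold change was -0.26 over the 27 S-phase members and 0.11 over the 16 mitotic members, against 0.01 over all genes tested, and 20 of 27 S-phase members but 6 of 16 mitotic members had a negative value. After each library was corrected for the GC content of the genes the medians were -0.50 and -0.09, so the sign of the mitotic median turned while the S-phase median stayed lower by 0.42, against 0.37 before correction. Leaving out SG replicate 2 gave medians of -0.12 and 0.045 and a gap of 0.16, and leaving out SG replicate 1 gave -0.37 and 0.060 and a gap of 0.43. Both dSG libraries were below both SG libraries for 16 S-phase members (59.3%) and 3 mitotic members (18.8%), against 32.7% of all genes. They were above both SG libraries for 4 S-phase members (14.8%) and 6 mitotic members (37.5%), against 33.2% of all genes.

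**Figure D1:**
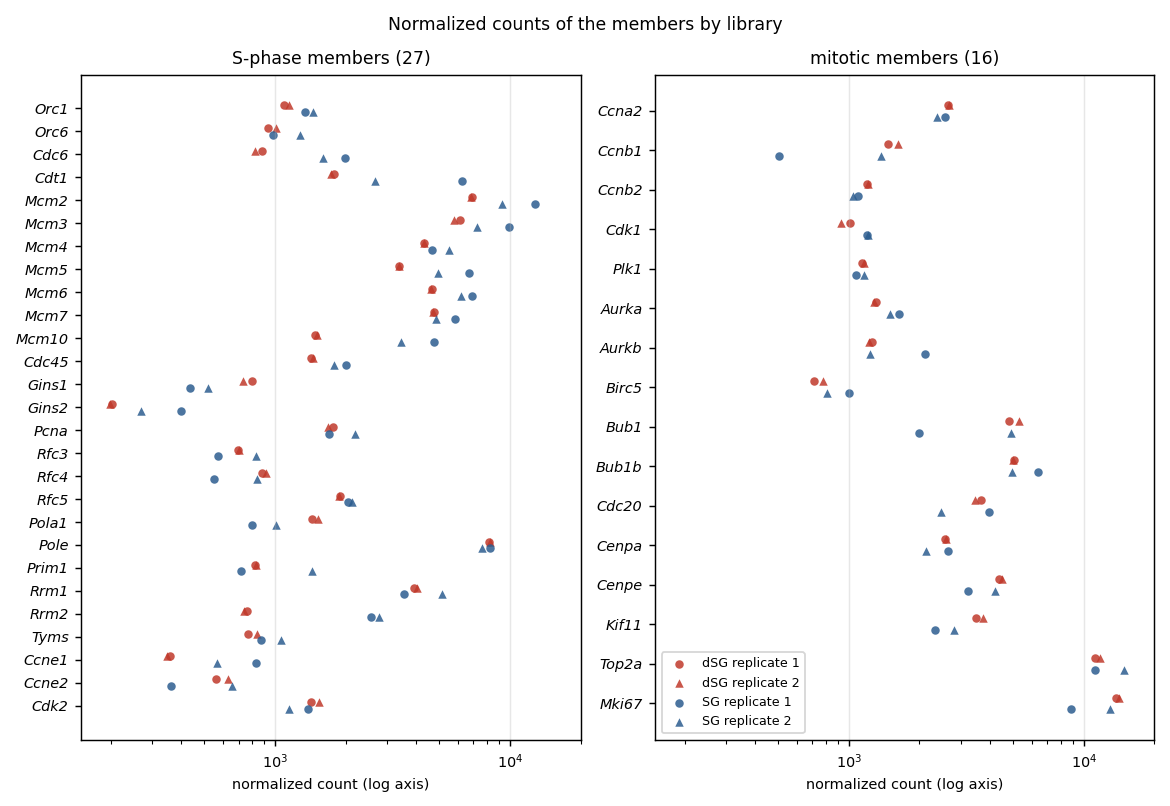
Normalized counts of the 27 S-phase and 16 mitotic members (log axis), with 1 point for each of 4 libraries, dSG in red above SG in blue. The dSG points of a gene lie close together, the SG points are up to 2.69-fold apart, and for Rrm2 and Mcm10 both dSG points lie left of both SG points.

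Within a library the level of the S-phase set can be read against the mitotic set. The median deviation of the S-phase members from their mean over the 4 libraries was -0.16 and -0.12 (log2) in dSG, and 0.04 and 0.16 in SG. That of the mitotic members was 0.05 and 0.05 in dSG, and -0.02 and 0.01 in SG. The S-phase median minus the mitotic median was therefore -0.21 and -0.17 in dSG and 0.06 and 0.15 in SG, and after GC correction -0.21 and -0.23 in dSG and 0.12 and 0.16 in SG. Both dSG libraries were below both SG libraries on this difference, with and without the correction, and 2 libraries against 2 allow no two-sided exact permutation p under 0.333.

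**Figure D2:**
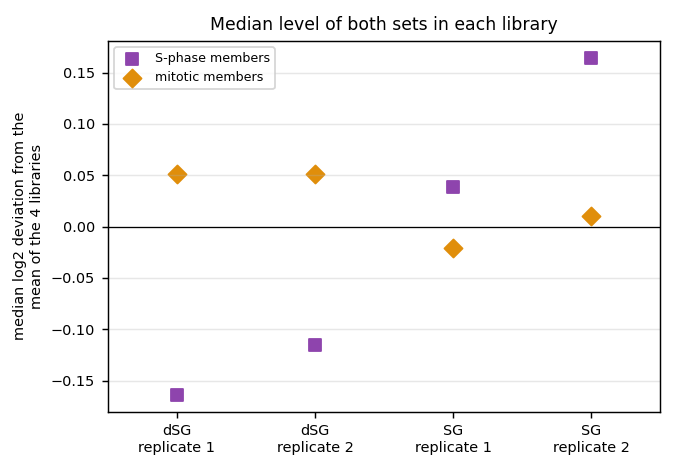
Median log2 deviation of the S-phase members (squares) and the mitotic members (diamonds) from each gene's mean over the 4 libraries, by library. In the dSG libraries the squares are at -0.16 and -0.12 and lie under the diamonds, and in the SG libraries they are at 0.04 and 0.16 and lie over them.

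Licensing genes shared 1 direction. All 10 had a negative log2 fold change, from -1.21 to -0.17 with a median of -0.50, and in 9 of 10 both dSG libraries were below both SG libraries, against 32.7% of all genes, the exception being Orc6. Under quantile normalization and after GC correction Mcm7 turned positive (0.04 and 0.09) and the other 9 stayed negative, with medians of -0.26 and -0.53. None of the 10 was called, and GC correction called 6 of them lower (Orc1, Orc6, Cdc6, Mcm4, Mcm5 and Mcm6), against 12.8% of all genes under that correction. Cdc6, the ATPase that brings the helicase to the origin, had 878 and 819 normalized counts in dSG and 1981 and 1605 in SG, a log2 fold change of -1.07 with an SE of 0.20 (limma adjusted p = 0.0598). Its 2 pairs of values do not overlap, and edgeR, DESeq2 and the GC-corrected fit placed it past the threshold. The annotated gene Gm9430 shares 12.4% of the Cdc6 transcript. Cdt1, the partner of CDC6 that is destroyed once S phase begins, had 1784 and 1731 in dSG and 6244 and 2670 in SG (log2 fold change -1.21, SE 0.44, adjusted p = 0.179). The groups do not overlap, the SG libraries differ 2.34-fold, and leaving out SG replicate 1 gave a log2 fold change of -0.60.

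Per kb of annotated exon, the 6 subunits of the MCM2 to MCM7 ring had the highest dSG levels of the S-phase set. That length joins the exons of all transcripts, 6956 bases for Mcm2 against 3494 in its longest transcript. For Pcna it is 2400 against 1518, and ranks with another length were not tested. The mean levels of the 6 subunits in dSG ran from 843 normalized counts per kb for Mcm5 to 1589 for Mcm3, a 1.89-fold range. In SG they ran from 1211 for Mcm7 to 2289 for Mcm3, also 1.89-fold. Mcm5 had 3374 and 3358 normalized counts in dSG and 6704 and 4932 in SG (log2 fold change -0.77, SE 0.22, limma adjusted p = 0.123). Mcm2 had 6928 and 6803 in dSG and 12798 and 9297 in SG (-0.67, SE 0.23, adjusted p = 0.163). These 2 had the most negative values of the ring, and Mcm3, Mcm6, Mcm4 and Mcm7 had log2 fold changes of -0.51, -0.49, -0.24 and -0.17. Mcm7 shares 65.1% of its longest transcript, in runs of 50 bases, with other annotated genes, chiefly the copy Gm5487, so its reads are uncertain. The origin complex subunits Orc1 and Orc6 had log2 fold changes of -0.32 and -0.20.

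Helicase activation genes went in different directions. Mcm10 (chr2:4989714-5012791, minus strand, GRCm38) had 1486 and 1518 normalized counts in dSG and 4778 and 3433 in SG. The log2 fold change was -1.43 with an SE of 0.23 and a 95% interval of -2.04 to -0.82 (limma adjusted p = 0.0443). Both dSG values lay under both SG values, and leaving out SG replicate 1 gave -1.19. The call was lost with no filter on low values, with a filter of 40 in every library, and without the variance trend, with adjusted p from 0.0509 to 0.0601, and when either dSG library was left out. Gins1, a subunit of the GINS complex, went the other way, with 796 and 733 in dSG and 437 and 520 in SG (0.68, SE 0.20, adjusted p = 0.132). Gins2, the member with the lowest mean, had 202 and 198 in dSG and 398 and 270 in SG (-0.70, SE 0.27, adjusted p = 0.193). Exons of the antisense gene Gse1 cover 67.3% of those of Gins2, and since the strand setting of the counting is not stated the source of its reads is uncertain. Cdc45 had a log2 fold change of -0.39.

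No fork gene passed the test, and log2 fold changes ran from -0.31 to 0.73. Pola1, the catalytic subunit of the polymerase that makes primers, had 1441 and 1530 normalized counts in dSG and 795 and 1006 in SG, the highest fold change of the S-phase set at 0.73 (SE 0.21, limma adjusted p = 0.121). After GC correction that value was 0.09. Rfc4, a subunit of the loader that puts PCNA on DNA, had 883 and 912 in dSG and 551 and 839 in SG (0.40, SE 0.27, adjusted p = 0.373), and its value after GC correction was -0.08. Pcna itself had 1774 and 1689 in dSG and 1698 and 2198 in SG, so the groups overlap, and 46.9% of its transcript is shared with the pseudogene Pcna-ps2. GC correction called Pcna lower, against 12.8% of all genes, and its lowest value over the alternatives was -0.48. Rfc3, Rfc5 and Pole, the leading-strand polymerase, had log2 fold changes of 0.02, -0.14 and 0.05. Prim1, the primase subunit, had 819 and 829 in dSG and 720 and 1445 in SG, with a log2 fold change of -0.31 that became -0.81 without SG replicate 1 and 0.19 without SG replicate 2.

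Nucleotide supply held the largest difference. Ribonucleotide reductase makes deoxyribonucleotides from a large subunit, RRM1, that is stable through the cycle and a small subunit, RRM2, whose synthesis is tied to S phase. Rrm2 (chr12:24708241-24714146, plus strand, GRCm38) had 761 and 739 normalized counts in dSG and 2561 and 2765 in SG. The log2 fold change was -1.82 with an SE of 0.17 and a 95% interval of -2.29 to -1.36 (limma adjusted p = 0.0254), and edgeR gave an adjusted p of 0.0217. The 2 values of each group lay close together and the groups did not overlap. Leaving out SG replicate 1 gave -1.88 and GC correction -2.08, and the adjusted p was 0.0927 and 0.114 when dSG replicate 1 or dSG replicate 2 was left out. Copies such as Gm48445 share 19.7% of the Rrm2 transcript. Rrm1 had 3903 and 4020 in dSG and 3559 and 5135 in SG, with groups that overlap and a log2 fold change of -0.11. GC correction called Rrm1 lower, against 12.8% of all genes, and its lowest value over the alternatives was -0.60. The ratio of Rrm2 to Rrm1 within a library was 0.195 and 0.184 in dSG and 0.720 and 0.538 in SG. Tyms, thymidylate synthase, had a log2 fold change of -0.26.

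Neither cyclin of S-phase entry passed the test. Ccne1, cyclin E1, had 356 and 348 normalized counts in dSG and 834 and 566 in SG (log2 fold change -0.96, SE 0.26, limma adjusted p = 0.111, and -0.73 after GC correction). Ccne2, cyclin E2, had 559 and 632 in dSG and 362 and 656 in SG, with a log2 fold change of 0.28 that became -0.14 without SG replicate 1 and -0.84 after GC correction. The ratio of Ccne1 to Ccne2 was 0.637 and 0.550 in dSG and 2.31 and 0.863 in SG. The groups do not overlap, although the SG libraries differ widely. This ratio was not corrected for GC content, which is higher in Ccne1 than in Ccne2. After GC correction both log2 fold changes were negative and close, at -0.73 and -0.84. The lower ratio in dSG was therefore not seen in the corrected values. Cdk2, the kinase partner of both cyclins, had a log2 fold change of 0.23.

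**Figure D3:**
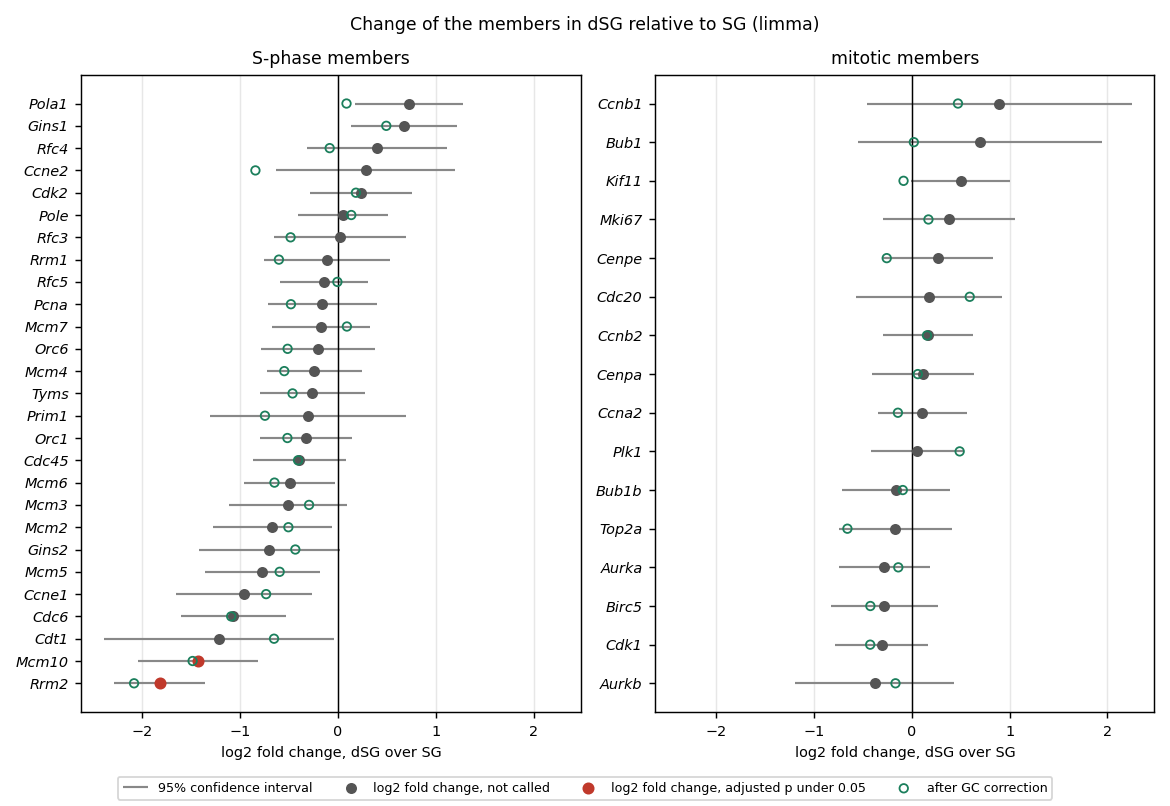
Log2 fold change of dSG over SG for each member, sorted within S-phase members (left) and mitotic members (right), with 95% confidence intervals from limma and the value after GC correction as open circles. Only Rrm2 and Mcm10 are marked as called, and open circles of 7 members (Mcm7, Rfc3, Rfc4, Ccne2, Ccna2, Cenpe and Kif11) lie across 0 from the filled ones.

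No gene of mitotic entry passed the test, and 4 of the 6 had a positive log2 fold change. Ccnb1, cyclin B1, had 1475 and 1627 normalized counts in dSG and 505 and 1366 in SG, the highest fold change of the mitotic set at 0.90, with an SE of 0.51 (limma adjusted p = 0.314). Both dSG values lay over both SG values, but leaving out SG replicate 1 gave 0.18, and 51.8% of the transcript is shared with copies such as Ccnb1-ps. Ccnb2, cyclin B2, had 1192 and 1209 in dSG and 1098 and 1039 in SG (0.17, 95% interval -0.30 to 0.63). Cdk1 had 1016 and 926 in dSG and 1199 and 1203 in SG, below in both dSG libraries, with a log2 fold change of -0.31 (adjusted p = 0.321). Cyclin A2 (Ccna2), Polo-like kinase (Plk1) and Aurora A (Aurka) had log2 fold changes of 0.11, 0.05 and -0.28.

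Checkpoint and passenger genes gave values on both sides of 0. Bub1, a kinase of the spindle checkpoint, had 4787 and 5318 normalized counts in dSG and 1981 and 4895 in SG (log2 fold change 0.70, SE 0.47, limma adjusted p = 0.373), and without SG replicate 1 the value was 0.04. Its relative Bub1b had 5042 and 5025 in dSG and 6407 and 4938 in SG (-0.16). Bub1 over Bub1b was 0.949 and 1.06 in dSG and 0.309 and 0.991 in SG, so SG replicate 1 alone was apart. Aurkb, the Aurora kinase of the passenger complex, had 1258 and 1220 in dSG and 2102 and 1236 in SG (-0.38, adjusted p = 0.444). Its complex partner Birc5, survivin, had a log2 fold change of -0.28, and Cdc20, the activator of the anaphase-promoting complex, one of 0.18. Per kb of annotated exon Cdc20 had the highest level of all members in dSG, 1895 normalized counts, against 1716 in SG. Other annotated genes share 35.8% of the Cdc20 transcript, so its reads are uncertain, and its rank with another length was not tested.

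Centromere and motor genes had values over 0 before GC correction, and Cenpe and Kif11 were under 0 after it. Kif11, the kinesin that pushes spindle poles apart, had 3490 and 3735 normalized counts in dSG and 2324 and 2801 in SG (log2 fold change 0.50, SE 0.19, limma adjusted p = 0.191), and -0.08 after GC correction. Cenpe, a kinetochore motor, and Cenpa, the centromeric histone, had log2 fold changes of 0.27 and 0.12, and Cenpe gave -0.25 after GC correction. Mki67, the proliferation antigen Ki-67 and the member with the highest mean, had 13769 and 14120 in dSG and 8799 and 12997 in SG (0.38, SE 0.25, adjusted p = 0.365), and omitting SG replicate 1 brought the value to 0.10, omitting SG replicate 2 to 0.66. Top2a had 11174 and 11733 in dSG and 11158 and 14796 in SG, with groups that overlap and a log2 fold change of -0.17. Mki67 and Top2a were thus both present at 11174 normalized counts or more in both dSG libraries. These counts are not per length, and the annotated exons span 10061 bases for Mki67 and 9013 for Top2a.

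**Figure D4:**
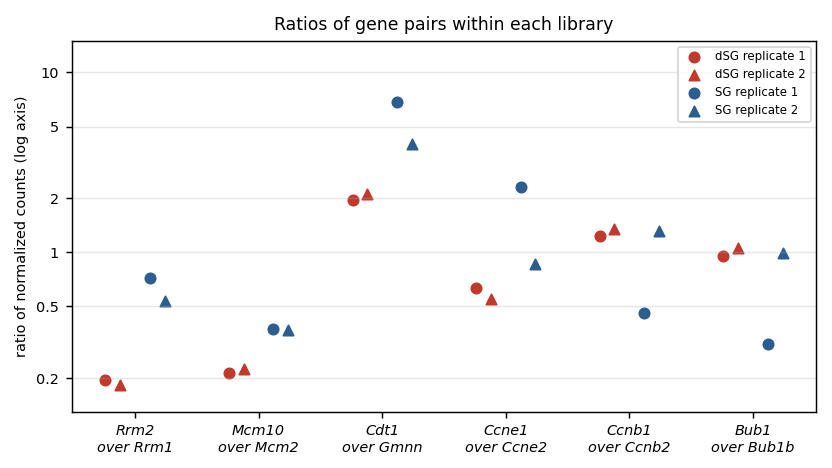
Ratio of normalized counts of 6 gene pairs within each library (log axis), dSG in red to the left of SG in blue. Rrm2 over Rrm1 is at 0.195 and 0.184 in dSG and 0.720 and 0.538 in SG, whereas Ccnb1 over Ccnb2 and Bub1 over Bub1b set only SG replicate 1 apart.

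Ratios within a library do not depend on how the libraries were scaled. They were not corrected for GC content, which can differ within a pair, with 57.8% for Cdt1 and 49.8% for Gmnn. Mcm10 over Mcm2 was 0.215 and 0.223 in dSG and 0.373 and 0.369 in SG, a pair of values in each group that differ far less than the groups do. Rrm2 over Ccnb2 was 0.638 and 0.612 in dSG and 2.33 and 2.66 in SG. Cdt1 over Gmnn, the gene of the CDT1 inhibitor geminin, was 1.95 and 2.10 in dSG and 6.87 and 3.98 in SG. Ccnb1 over Ccnb2 was 1.24 and 1.35 in dSG and 0.460 and 1.31 in SG, with SG replicate 1 apart from the other 3 libraries.

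GC content moved with the difference between the SG libraries. Across the 43 members Spearman's rho between the GC content of the longest transcript and the log2 ratio of SG replicate 1 to SG replicate 2 was 0.84, and across 14102 genes it was 0.73. The same rho was 0.59 and 0.28 for dSG replicate 1 over dSG replicate 2. With the log2 fold change of dSG over SG it was -0.51 across the members and -0.55 across all genes. These correlations run across genes that share libraries, so they are given with no p. Median GC content was 47.3% in the S-phase set and 47.6% in the mitotic set, against 49.6% over 19975 genes. With the GC correction 11 S-phase members were called lower and 0 higher, and in the mitotic set Cdc20 was called higher (0.59) and Top2a lower (-0.66), against 12.8% of all genes called lower and 8.2% called higher. The 11 were Orc1, Orc6, Cdc6, Mcm4, Mcm5, Mcm6, Mcm10, Pcna, Rrm1, Rrm2 and Ccne1.

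**Figure D5:**
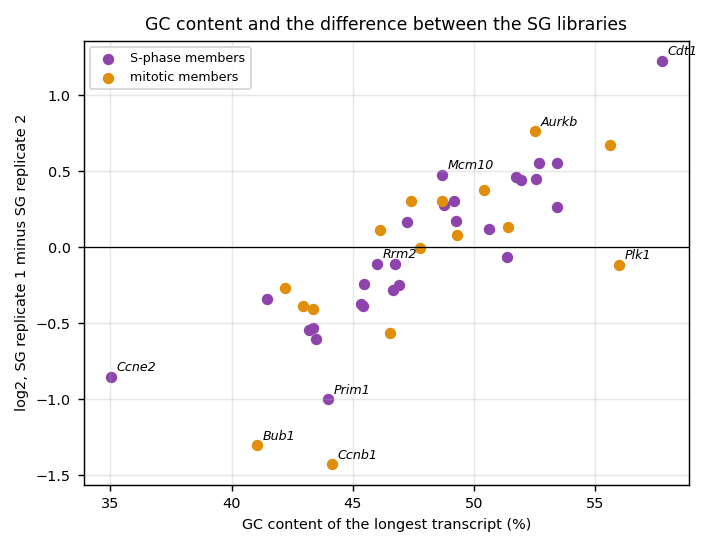
Log2 ratio of SG replicate 1 to SG replicate 2 against the GC content of the longest transcript (%), with 1 point per member, purple for S-phase and orange for mitotic members. Spearman's rho across the 43 points is 0.84, with Bub1, Ccnb1, Prim1 and Ccne2 low in SG replicate 1 and Cdt1 high.

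Other genes of the same pathways were counted from fixed lists. Of 45 other replication genes, 2 were called lower and 0 higher, near the 4.91% lower and 1.16% higher of all genes tested, and the median log2 fold change was -0.28 with 30 negative values. Uhrf1, which reads hemimethylated DNA behind the fork, had 4979 and 4907 normalized counts in dSG and 18276 and 13080 in SG (log2 fold change -1.64, SE 0.23, limma adjusted p = 0.0350). Pold4, the smallest subunit of polymerase delta, had 31.2 and 23.2 in dSG and 277 and 146 in SG (-2.73, SE 0.40, adjusted p = 0.0381). Pold4 was past the threshold in 15 of 16 alternatives and Uhrf1 in 14 of 17, with Uhrf1 lost when either dSG library was left out. Pold4 did not pass the filter of 40 in every library, so it was not tested there. Other annotated genes share 31.5% of the Pold4 transcript and 37.8% of the Uhrf1 transcript, so their reads are uncertain. Of 48 other mitosis genes 0 were called by limma, edgeR or DESeq2. In limma an unadjusted p under 0.05 was reached by 5 with positive values and by 0 with negative ones. At that threshold 10.5% of all genes tested were higher and 16.3% lower, so the 5 are near the share of genes at large. The median of the 48 was 0.30 with 32 positive values, and after GC correction it was -0.10 with 16 positive values. The 3 with the smallest p were Hmmr, Anln and Ncapg, with log2 fold changes of 0.84, 0.72 and 0.82 (adjusted p = 0.0889, 0.138 and 0.176). Before correction the other replication and other mitosis genes thus lay on the same sides of 0 as the S-phase and mitotic members.

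Of 19 genes of the E2F, RB and MuvB families 1 was called lower and 0 higher, again near the 4.91% of all genes called lower, with a median of -0.20. E2f2, an activator of S-phase genes, had 215 and 206 normalized counts in dSG and 785 and 523 in SG (log2 fold change -1.59, SE 0.27, limma adjusted p = 0.0497), a call kept in 10 of 17 alternatives and lost when either dSG library was left out. E2f1, its close relative, had 1758 and 1618 in dSG and 4989 and 2714 in SG (-1.12, adjusted p = 0.134). Of 6 checkpoint genes Cdkn1a, whose protein p21 inhibits cyclin-dependent kinases and binds PCNA, was called lower, with 71.8 and 69.5 in dSG and 606 and 359 in SG (-2.66, SE 0.32, adjusted p = 0.0300), also in all 17 alternatives. The other 5 (Atr, Atm, Chek1, Chek2 and Trp53) did not pass the test, so 1 of 6 was called lower, against 4.91% of all genes tested.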

How the data were processed

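RNA-seq values of 2 dSG and 2 SG libraries were used. The authors extracted total RNA with Trizol, sequenced directional libraries from both ends, mapped reads to GRCm38 (Subread) and tallied them by gene (featureCounts 1.5.3). For the strand setting, annotation release and multiply mapped reads the entry is: not given in the sources used here. The deposited signal is a normalized count per gene, which the authors made by dividing reads by a size factor for each library with DESeq2. The table is named as RPKM, but its values are not per length. Dividing by the smallest step gave whole reads for 100% of values at a tolerance of 0.01. Columns of the authors' own comparison (mean, log2 fold change, its standard error, test statistic, p-value and adjusted p-value) were not used.

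Limma 3.58.1 (R 4.3.3), with a variance trend and condition as the only term, was fitted to log2(normalized count + 4) for the 14108 genes with at least 20 normalized counts in at least 2 libraries. Fold changes are on that scale, which understates those of low genes. P-values were adjusted by the Benjamini-Hochberg method, and a call needs an adjusted p under 0.05. The main test was written for normalized values, with edgeR 4.0.16 and DESeq2 1.42.0 on the recovered reads as alternatives. Other alternatives were no filter, median centring, upper quartile scaling, quantile normalization, a filter of 40 in every library, no trend, pseudocounts of 40 and 0.4, each library left out, a replicate block, a loess correction for GC content (span 0.3, 14102 genes) alone and with that block, and unadjusted p. The scripts were tested on simulated data with the same spread in both groups and no effect of GC content. These libraries differ on both points, so that check covers the code and not the tests on such data. Library depth ran from 7484560 to 26953654 reads, and intervals come from the fit.

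The members and lists were chosen with earlier results of these data known. Values in all libraries are given by rule for members called, for the member with the smallest p in each role group, and for those with the highest and lowest mean. Those of Cdt1, Mcm2, Mcm5, Gins1, Pcna, Prim1, Rrm1, Ccne2, Ccnb2, Cdk1, Bub1b, Aurkb, Top2a and E2f1, and the printed promoters and ratios, were chosen after the values were seen. Lists for meiotic, spermatid, Leydig, myoid, macrophage and endothelial markers were also summed and carry no result here. Coordinates, GC content and shared 50-base runs come from GENCODE M21. Such runs covered at least 10.2% of the longest transcript in 16 of the 43 members, so their reads are less certain. These were Orc1, Cdc6, Mcm7, Gins2, Pcna, Rfc4, Rfc5, Rrm1, Rrm2, Tyms, Ccne2, Ccna2, Ccnb1, Plk1, Cdc20 and Kif11.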

Additional observations from a re-analysis of the deposited data

How the results depend on the processing

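Rrm2 and Mcm10 stayed negative under all 17 alternatives, at -2.08 to -1.74 and -1.67 to -1.19. Rrm2 was past the threshold in 15 of them and Mcm10 in 12, with adjusted p of 5.61e-117 to 0.114 and 6.58e-123 to 0.312, the smallest values coming from the 2 fits without an SG library. The reported counts were 2 S-phase members lower, 0 higher and 0 mitotic members in either direction. With no filter, a filter of 40 in every library, or no trend, 1 S-phase member was lower, and 4 were by DESeq2. At an unadjusted p under 0.05, 8 were lower and 2 higher. Leaving out libraries gave 0 to 20 S-phase members lower and 0 to 7 higher, and 0 to 6 mitotic members higher and 0 to 6 lower. The high counts come from the fits without SG replicate 1 (3 S-phase members higher and 20 lower, 6 mitotic higher and 3 lower) or SG replicate 2 (7 and 13, 5 and 6), which take the spread mainly from the dSG pair, assume that the lone SG library varies like it, and call 59.8% and 81.2% of all genes. Without dSG replicate 1 or dSG replicate 2 no S-phase member was called. GC correction called 11 S-phase members lower, 1 mitotic member higher and 1 lower, and with the replicate block 15, 2 and 1, a fit that called 19% of all genes lower and 14.5% higher. The replicate block alone called 5 S-phase members lower (Rrm2, Mcm10, Cdc6, Cdt1 and Ccne1) and 1 mitotic member higher (Ccnb1), with 1150 genes higher and 1790 lower over all genes, against 164 and 692 without it. The replicate numbers were not tied to shared cultures by the labels, and the replicate differences of the groups correlated at r = 0.23 across 14108 genes, so the numbers were not read as pairs.

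The median of the S-phase members (-0.26) was -0.18 with upper quartile scaling, -0.50 after GC correction with or without the replicate block, and -0.37 to -0.12 with a library left out. The median of the mitotic members (0.11) was 0.24 with quantile normalization, 0.19 with upper quartile scaling, 0.15 with median centring, 0.15 by edgeR, 0.14 by DESeq2, -0.087 after GC correction with or without the block, and 0.045 to 0.12 with a library left out. The S-phase median minus the mitotic median (-0.37) was -0.45 with quantile normalization and -0.43 to -0.16 with a library left out. The counts that follow are out of 45 other replication, 48 other mitosis and 19 E2F, RB and MuvB genes. Of all genes, 12.7% were called lower and 8.15% higher with the replicate block, and 10.4% and 3.32% by DESeq2. The shares were 12.8% and 8.2% with GC correction, 19% and 14.5% with both, and 16.3% and 10.5% unadjusted. A larger count below is therefore not by itself a larger change in these genes. For other replication, mitosis and E2F, RB and MuvB genes (3 lower, 0 higher) the counts lower were 1 with no filter, 0 with the filter of 40, 5 with the replicate block and by DESeq2, 13 with GC correction, 23 with both, 10 unadjusted and 1 to 46 with a library left out. The counts higher were 4 with the block, 3 with GC correction, 5 with both, 1 by DESeq2, 8 unadjusted and 0 to 48 with a library left out.

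Of the 43 members 17 turned sign under some alternative. With GC correction, alone or with the block, these were Mcm7 (0.093), Rfc3 (-0.48), Rfc4 (-0.083), Ccne2 (-0.84), Ccna2 (-0.14), Cenpe (-0.25) and Kif11 (-0.083). With quantile normalization they were Mcm7 (0.038), Rrm1 (0.043), Bub1b (0.051) and Top2a (0.053). Leaving out 1 library at a time gave values on both sides of 0 for Rfc3 -0.25 to 0.29, Ccne2 -0.14 to 0.71, Plk1 -0.0075 to 0.11, Aurkb -0.76 to 0.0029, Bub1b -0.35 to 0.028, Pcna -0.34 to 0.027, Pole -0.0061 to 0.11, Prim1 -0.81 to 0.19, Rrm1 -0.37 to 0.15, Cdc20 -0.15 to 0.52, Cenpa -0.034 to 0.27 and Top2a -0.37 to 0.037. The cause of these shifts was not tested. With 2 libraries in each group and an SG pair that differs widely, changes of the size of most members could not be called.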

Other observations

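Several members differed more between the SG libraries than between the groups. Ccnb1 was 2.69-fold lower in SG replicate 1 than in SG replicate 2, and Bub1, Prim1 and Cdt1 also differed by at least 2-fold, with Cdt1 higher in replicate 1. The median absolute log2 difference over the 43 members was 0.04 for the dSG pair and 0.37 for the SG pair.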
